A study of Mus musculus with 5 samples.

Results

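A group of 10 secreted host-defence genes was described in bulk RNA sequencing of sorted mouse aortic macrophages: the acute phase genes Saa3, Saa1, Hp and Lcn2, the calprotectin genes S100a8 and S100a9, the lysozyme genes Lyz1 and Lyz2, the cathelicidin gene Camp and the protease inhibitor gene Slpi. They were chosen by symbol from a list written with the levels in these libraries known, and all 10 were found once each among the 41388 Ensembl IDs of every table. Their levels, and their differences between the groups, are therefore given as a description with no test. The adventitia group held 3 libraries of live CD64-positive cells from the adventitia, the outer coat, of the complete aorta of ApoE-/- mice (strain C57BL/6, 6 animals stated), kept on high-fat food over 28 weeks. The intima group held 2 libraries of live cells carrying CD64, CD11c and MHC II from the thoracic aorta of C57BL/6 mice once the adventitia had been taken off, each pooled from 5 animals. Fat around the vessel was removed in both groups, and no age is given in the sources used here. Layer, genotype, aortic segment and gate all differed between the groups, and a diet is given for the adventitia mice only, so these cannot be told apart. The labels do not say whether the adventitia libraries came from separate animals, so the p-values cover only the spread among these libraries, which may be technical.

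Acute phase proteins are made mainly by the liver after infection or injury, under the control of interleukin 6 and interleukin 1 acting through STAT3, C/EBP and NF-κB factors. Saa3 differs from Saa1 in that mouse macrophages and fat cells make it locally, whereas Saa1 is chiefly a liver product. Lysozyme cuts the bacterial cell wall, calprotectin (the dimer of S100A8 and S100A9) withholds zinc and manganese from microbes, lipocalin 2 captures the iron carriers of bacteria, and the cathelicidin peptide damages microbial membranes. Macrophages are rich in Lyz2, while calprotectin and cathelicidin are best known from neutrophils. In bulk RNA, fewer cells of a type and less RNA per cell cannot be told apart.

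Comparisons of sequence bear on how the read counts can be taken. The first bases of the coding parts of Lyz1 and Lyz2 are shown because these neighbours on chromosome 10 are near-identical copies, and single reads of 50 bases must be assigned between them. Both genes run on the minus strand of GRCm38, and capitals mark the 7 of the first 90 coding bases that differ, at chr10:117292749-117292838 in Lyz1 and chr10:117282153-117282242 in Lyz2.
Lyz1: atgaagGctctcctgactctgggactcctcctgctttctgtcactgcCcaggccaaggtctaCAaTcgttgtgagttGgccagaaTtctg
Lyz2: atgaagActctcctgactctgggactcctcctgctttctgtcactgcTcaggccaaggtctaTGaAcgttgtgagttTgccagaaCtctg
Over the whole coding sequence of 447 bases, 95.1% of the bases were identical. Of the 1214 stretches of 50 bases in the Lyz1 transcript of GENCODE M21, 195 (16.1%) were also found unchanged in Lyz2. Reads from those stretches cannot be told apart, so the Lyz1 count is uncertain. The Saa1 transcript shared 83 of its 560 stretches (14.8%) with Saa2 or Saa3, and Saa3 shared 9 of 506 (1.78%) with Saa1. Hp, Lcn2, S100a8, S100a9, Camp and Slpi shared none with another gene's transcripts.

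The 250 bases before the start of Saa3 and of Saa1 are shown because these neighbours on chromosome 7 stood far apart in these libraries. They are RefSeq sequences of GRCm38.p6, on the minus strand, at chr7:46715677-46715926 for Saa3 and chr7:46742981-46743230 for Saa1. Capitals mark the match to the C/EBP motif TTGCNNAA, searched on both strands (TTNNGCAA in reverse).
Saa3: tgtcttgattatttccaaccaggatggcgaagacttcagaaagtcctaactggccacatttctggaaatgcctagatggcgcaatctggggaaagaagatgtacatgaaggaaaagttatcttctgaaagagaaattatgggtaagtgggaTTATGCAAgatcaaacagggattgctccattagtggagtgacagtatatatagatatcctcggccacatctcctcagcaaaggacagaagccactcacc
Saa1: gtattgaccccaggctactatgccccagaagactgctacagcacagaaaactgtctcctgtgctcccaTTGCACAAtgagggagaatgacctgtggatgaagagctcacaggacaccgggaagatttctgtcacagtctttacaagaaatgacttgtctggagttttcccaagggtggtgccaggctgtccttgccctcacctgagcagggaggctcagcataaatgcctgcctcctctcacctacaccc
The match began 99 bases before the start in Saa3 and 182 bases before it in Saa1. RefSeq held a promoter for 9 of the 10 genes, and 6 of the 9 had such a match within 250 bases: Saa3, Saa1, Lcn2, S100a9, Lyz1 and Slpi. Among all 32851 promoter entries of the table, 9.56% had one. The STAT motif TTCNNNGAA, whose reverse is the same, was found in 0 of the 9, against 7.02% of all entries. For NF-κB a single form of the motif was searched, with 0 of the 9 against 1.41%. Other forms of it were not searched. With so few matches among all entries, 0 of the 9 does not show that these promoters lack STAT or NF-κB sites. The searches match letters only, and the C/EBP match is the only one found by them in each sequence shown. In GENCODE M21 the Saa3 transcript starts further upstream, so that the last 24 bases of its window lie within it. The windows of Lcn2 and Slpi lie wholly within the span of their own gene there, and those of S100a8, Lyz2 and Camp lie partly within it. The 9 windows are therefore not all upstream of the gene as annotated in GENCODE M21.

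The libraries held 3941381, 10076142 and 10054377 counted reads in the adventitia and 14970204 and 20806925 in the intima, where 3 reads correspond to 0.144 to 0.761 CPM (reads scaled to the library total). Genes with at least 1 read numbered 23289, 25212 and 25738 in the adventitia, against 17489 and 16374 in the intima. The intima libraries thus held fewer genes at greater depth, so a count of 0 or 1 there cannot be judged from the read total alone. Apoe, the gene knocked out in the adventitia mice, was at 21.1, 18.9 and 10.8 CPM in the adventitia, against 4741 and 4209 CPM in the intima. Fcgr1, which encodes the CD64 used in both gates, was present at 115 to 280 CPM in the adventitia, against 139 to 152 CPM in the intima, and 12 of 12 macrophage markers had reads in both groups. Itgax, which encodes the CD11c of the intima gate, was at 19.5, 35.2 and 27.1 CPM in the adventitia, against 62.5 and 261 CPM in the intima, and the MHC II gene H2-Ab1 at 2730, 4496 and 5346 CPM in the adventitia, against 7066 and 7498 CPM in the intima. The 2 intima libraries stood apart from each other: of the 9073 tested genes at 10 CPM or more in either, 14.2% were under 0.5 CPM in the other, after scaling by trimmed means (TMM). The same share was 1.67, 1.77 and 1.29% for the pairs of adventitia replicates 1 and 2, 1 and 3, and 2 and 3.

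The 10 genes made up 0.964, 0.796 and 1.35% of the adventitia libraries and 1.02 and 0.525% of the intima libraries. Lyz2 alone held 96.5 to 98.5% of these reads in the adventitia and 99.7 and 98.7% in the intima. Without Lyz2 the other 9 genes summed to 334, 125 and 205 CPM in the adventitia, against 35.5 and 67.2 CPM in the intima, and these ranges did not overlap. Per length, in the deposited RPKM (the same scaled by transcript length), the order in the adventitia was Lyz2 at 8023 ± 2249, Saa3 at 188 ± 138, S100a8 at 84.6 ± 54.5, Lyz1 at 43.0 ± 7.10 and S100a9 at 35.9 ± 20.6 (SD, n = 3), with Slpi, Lcn2, Hp, Saa1 and Camp at means of 0.306 to 4.63 RPKM. Of these neighbours, Lyz2 stood above all others in every library, while Saa3 and S100a8, and Lyz1 and S100a9, had overlapping ranges. In the intima Lyz2 was again first, at 8015 and 4097 RPKM, followed by S100a9 at 0 and 43.5, Lyz1 at 4.23 and 19.0, Slpi at 0 and 14.2, Hp at 11.2 and 0.823 and Lcn2 at 6.53 and 0 RPKM. Saa3 and S100a8, next after Lyz2 in the adventitia, were at most at 2.90 and 2.57 RPKM in the intima.

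**Figure D1:**
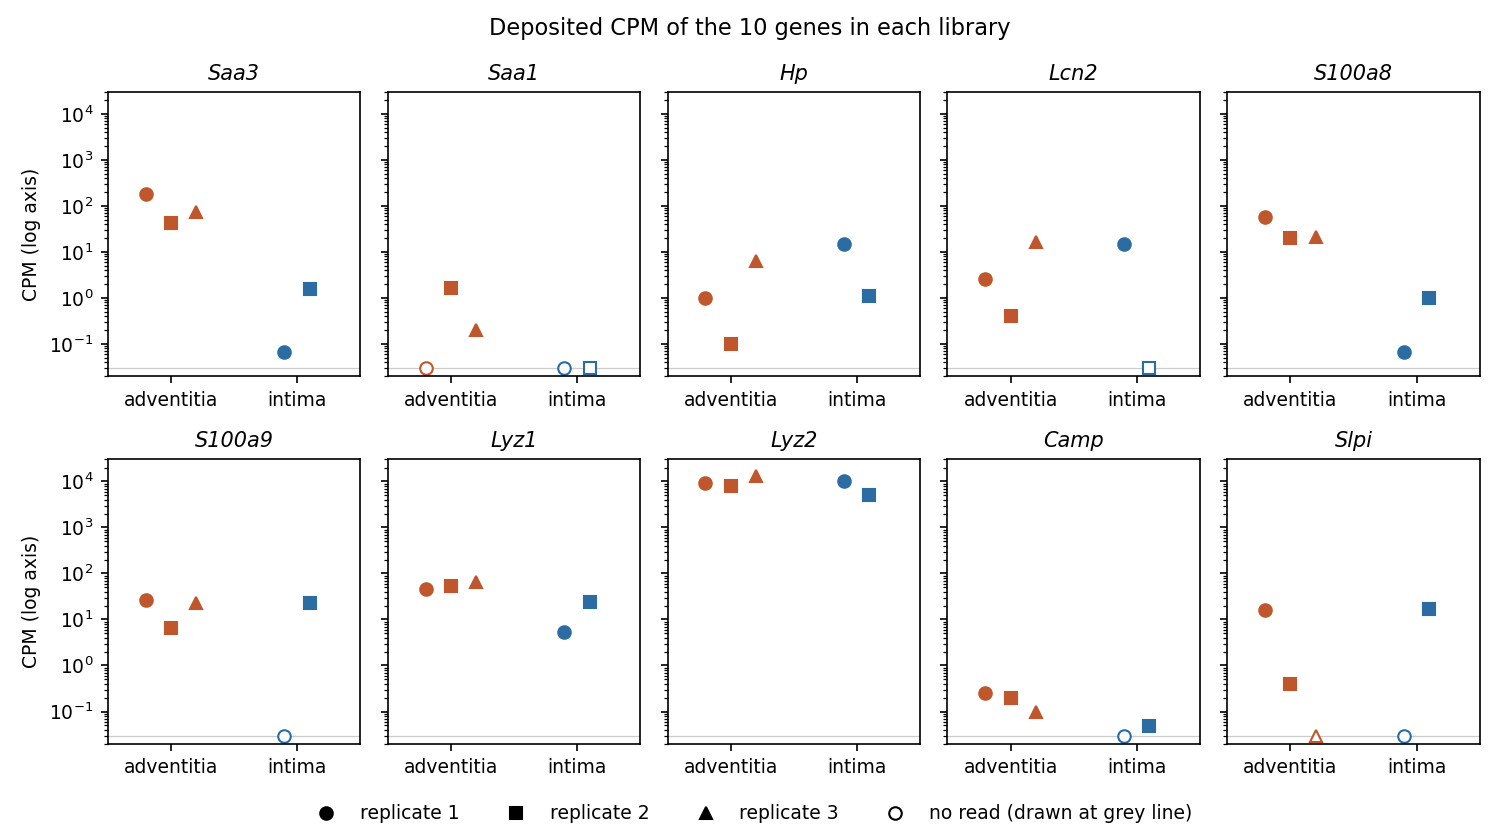
Deposited CPM on a log axis for each of the 10 genes, with adventitia libraries (red, n = 3) left of intima libraries (blue, n = 2), the marker shape giving the replicate and an open marker on the grey line a library with no read. Saa3 and S100a8 sit between 20.5 and 182 CPM in the adventitia and at or under 1.54 CPM in the intima, Lyz2 is near the top in all 5 libraries, and Lcn2, S100a9 and Slpi are split within the intima.

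Saa3, which encodes a serum amyloid A protein that binds lipoproteins and retinol, had the highest level of the 4 acute phase genes among the 10 in the adventitia, per length and in CPM. It (ENSMUSG00000040026) lies on chromosome 7 from 46711998 to 46715676 in GRCm38, on the minus strand like all of the 10 genes except S100a8. It had 719, 430 and 747 reads in the adventitia, or 182, 42.7 and 74.3 CPM, and 1 and 32 reads in the intima, or 0.0668 and 1.54 CPM. Every adventitia library was above both intima libraries, and adventitia replicate 1 was the highest. The log2 difference, adventitia minus intima as everywhere below, was 6.69 (SE 1.28, n = 3 and 2) in edgeR's fit with TMM scaling. Leaving out 1 library moved it between 5.94 without intima replicate 1 and 9.87 without intima replicate 2, which leaves 1 intima read. With 1 read or none in a group, here and below, the fitted size depends on the fit's prior count and is no bound. The summed fibroblast markers were also higher in the adventitia, at 835, 699 and 1594 CPM, against 305 and 283 CPM in the intima, with reads for 12 of 12 in both groups. Their sum was highest in adventitia replicate 3, unlike Saa3. Not every marker followed the sum. Mfap5 was at 22.8, 16.3 and 46.6 CPM in the adventitia, against 36.6 and 57.9 CPM in the intima. Col1a1, Col3a1 and Pi16 had overlapping groups in CPM. Of the 12 markers, 11 had a positive log2 difference. EdgeR called Lum and Ogn, which encode matrix proteoglycans, as higher in the adventitia. Lum was at 86.0, 43.2 and 227 CPM in the adventitia, against 0.334 and 0 CPM in the intima, a log2 difference of 9.27 with an SE of 1.47 (edgeR, adjusted p = 0.0148). Ogn was at 69.5, 15.4 and 47.2 CPM in the adventitia, with 1 read in the intima, and its pooled ratio was 1174, counting interval 210.1 to 46406 at 95% (edgeR, adjusted p = 0.0328). Both calls were lost without adventitia replicate 1 or 3, and that of Ogn also without intima replicate 2. The part of fibroblasts in the Saa3 reads was not tested.

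Saa1 (ENSMUSG00000074115, chromosome 7, 46740501 to 46742980), the classical serum amyloid of the liver response, was almost absent. It had 0, 17 and 2 reads in the adventitia, or 0, 1.69 and 0.199 CPM, and no read in either intima library. The 95% counting intervals there reached up to 0.246 and 0.177 CPM. The 17 reads of adventitia replicate 2 made nearly all of its signal. Pooled over libraries, its 19 adventitia reads stood at 8.22 times a floor of 3 reads over the intima group. This leaves out the counting error of the 19 reads and is no bound, and the groups overlapped. Saa1 did not pass the filter on low counts.

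Hp (ENSMUSG00000031722, chromosome 8, 109575130 to 109579172) encodes haptoglobin, which binds free haemoglobin for uptake through CD163. It had 4, 1 and 64 reads in the adventitia, or 1.01, 0.0992 and 6.37 CPM, and 225 and 23 reads in the intima, or 15.03 and 1.11 CPM. Intima replicate 1 and adventitia replicate 3 were the high libraries, and the groups overlapped. The log2 difference was -1.92 (SE 1.91), and it turned to 1.23 without intima replicate 1.

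Lcn2 (ENSMUSG00000026822, chromosome 2, 32384633 to 32387797) followed a similar split. It had 10, 4 and 162 reads in the adventitia, or 2.54, 0.397 and 16.1 CPM, and 225 and 0 reads in the intima, or 15.03 and 0 CPM. The same 2 libraries were high as for Hp, and no read was found among the 20806925 of intima replicate 2. The log2 difference was -0.49 (SE 2.18), and it was 9.21 without intima replicate 1, with no intima read left.

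A few other genes of the acute phase response were also highest in adventitia replicate 3 within their group, and were picked for that after their values were seen. The lists they come from were not: the 26 other acute phase genes summed to 1388, 1588 and 1247 CPM and the 22 inducing and signalling genes to 6572, 6342 and 3887 CPM in adventitia replicates 1, 2 and 3, lowest in replicate 3 for both. Il6, which encodes interleukin 6, was at 0.254, 0.496 and 17.2 CPM in the adventitia, against 0 and 0.144 CPM in the intima. Serpina3n, an acute phase protease inhibitor of the mouse, was at 5.07, 3.77 and 29.1 CPM in the adventitia with no read in the intima, and Il1r1, the interleukin 1 receptor, at 0.761, 0.695 and 30.1 CPM in the adventitia, against 3.41 and 11.2 CPM in the intima. The summed fibroblast markers given above were highest in the same library. Their part in the levels of Hp and Lcn2 was not tested. Albumin and transthyretin, which define liver cells, did not exceed 0.199 CPM in any of the libraries. The 10 liver cell markers summed to 328, 242 and 193 CPM in the adventitia, against 126 and 90.6 CPM in the intima, most of it transferrin (Trf). In intima replicate 2, the liver cell genes Apoa1, Serpina1b and Ahsg were at 17.1, 9.76 and 4.42 CPM, and each stayed at or under 1.01 CPM in the other 4 libraries. The fat cell gene Adipoq had a single read in all, in adventitia replicate 2, and the summed level of 12 fat cell markers was 49.0, 30.7 and 13.5 CPM in the adventitia, against 24.4 and 18.6 CPM in the intima.

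S100a8 (ENSMUSG00000056054) and S100a9 (ENSMUSG00000056071) lie close together on chromosome 3 (90669071 to 90670034 and 90692632 to 90695721). S100a8 had 228, 207 and 212 reads in the adventitia, or 57.8, 20.5 and 21.1 CPM, and 1 and 21 reads in the intima, or 0.0668 and 1.01 CPM. All adventitia libraries were above both intima libraries. The log2 difference was 5.68 (SE 1.63), between 4.95 without intima replicate 1 and 8.28 without intima replicate 2, which leaves 1 intima read.

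S100a9, the partner subunit, did not follow S100a8 in every library. It had 106, 66 and 229 reads in the adventitia, or 26.9, 6.55 and 22.8 CPM, and 0 and 473 reads in the intima, or 0 and 22.7 CPM. Intima replicate 2 was thus close to adventitia replicates 1 and 3, while intima replicate 1 had no read. Per length, the S100a9 level was 0.349, 0.239 and 0.811 of the S100a8 level in the adventitia libraries, and 16.9 times it in intima replicate 2. The log2 difference of S100a9 was 0.55 (SE 1.79), -0.32 without intima replicate 1 and 10.33 without intima replicate 2, with no intima read left. No shared stretch of 50 bases and no overlapping exon of another gene was found for either gene in GENCODE M21.

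**Figure D2:**
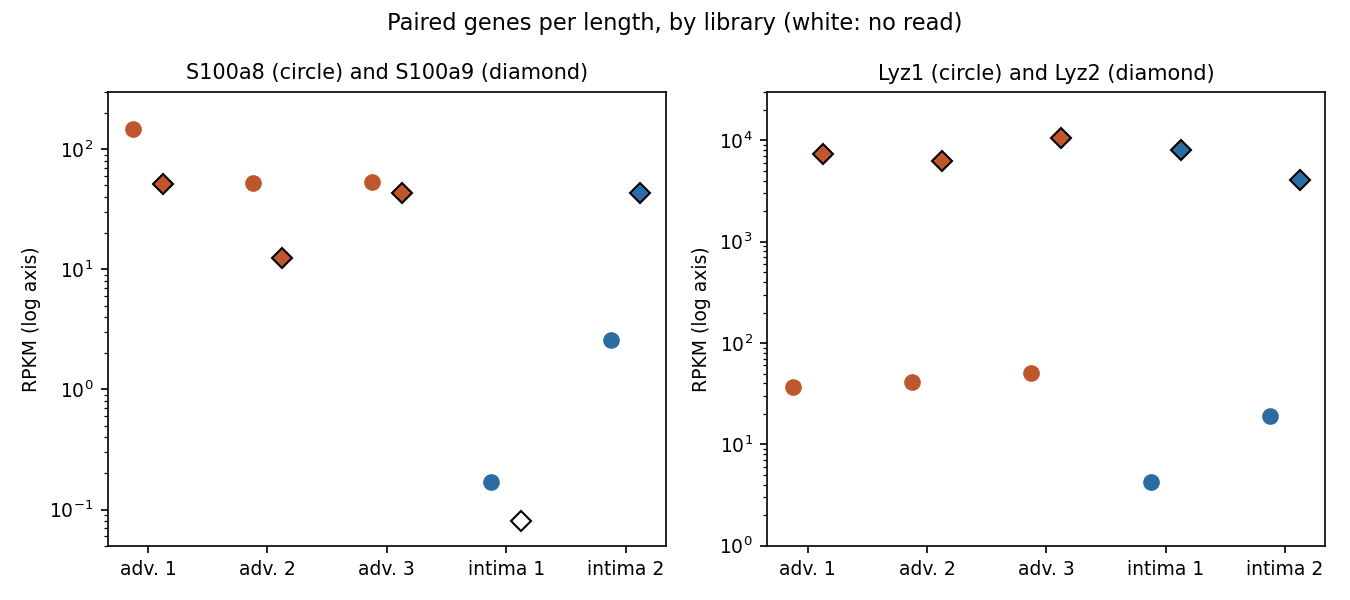
RPKM on a log axis of S100a8 (circles) and S100a9 (diamonds, left panel) and of Lyz1 (circles) and Lyz2 (diamonds, right panel) in each library, with adventitia (adv.) in red and intima in blue; an open marker is a library with no read. S100a8 is above S100a9 in the 3 adventitia libraries and far below it in intima replicate 2, and Lyz2 is above Lyz1 in all 5 libraries.

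Neutrophil markers were measured beside the calprotectin genes. The 14 listed markers, which leave out S100a8, S100a9 and Camp, summed to 74.3, 104 and 63.6 CPM in the adventitia, against 83.6 and 246 CPM in the intima, with reads for 13 of them in the adventitia and 11 in the intima. Ly6g, which defines mouse neutrophils, was at 0.761, 0.198 and 0.199 CPM in the adventitia with no intima read. Retnlg, another neutrophil gene, was at 15.2, 8.54 and 0 CPM in the adventitia, with no read in either intima library. Cxcr2, a neutrophil chemokine receptor, was at 2.03, 0.893 and 0.796 CPM in the adventitia. It had 0 CPM in intima replicate 1 but 17.5 CPM in replicate 2, the intima library with S100a9 reads. Il1r2, a decoy interleukin 1 receptor of neutrophils and some macrophages, was also highest in that library, at 2.54, 12.1 and 12.0 CPM in the adventitia, against 10.1 and 144 CPM in the intima. Mmp9, from the same list, went the other way in the intima, at 68.7 CPM in replicate 1 and 0.961 CPM in replicate 2. In the adventitia Mmp9 was at 20.6, 30.8 and 33.7 CPM. Cxcr2 is named after its values were seen. The 12 monocyte markers, a cell type that also makes calprotectin, summed to 2946, 2887 and 2689 CPM in the adventitia, against 947 and 1633 CPM in the intima, with reads for 12 of them in the adventitia and 11 in the intima. Of these, edgeR called Plac8 as higher and Ace as lower in the adventitia. Plac8 was at 40.3, 45.0 and 84.4 CPM in the adventitia, with 1 read in the intima, and its pooled ratio was 1897, counting interval 340 to 74968 at 95% (edgeR, adjusted p = 0.0106), and the call was lost without adventitia replicate 1 or 3. Ace was at 2.03, 2.48 and 4.77 CPM in the adventitia, against 93.8 and 128 CPM in the intima, a log2 difference of -5.34 with an SE of 0.76 (edgeR, adjusted p = 0.0080), and the call was lost without adventitia replicate 1. The part of either cell type in the calprotectin levels was not tested.

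Camp (ENSMUSG00000038357, chromosome 9, 109847375 to 109849456), the cathelicidin precursor stored in neutrophil granules, was at or under the level of 3 reads in every library. It had 1, 2 and 1 reads in the adventitia and 0 and 1 reads in the intima, or at most 0.254 CPM. The pooled ratio of adventitia to intima was 5.19, with a 95% counting interval of 0.514 to 255.7, so no difference was detectable at this depth. Among other neutrophil granule genes, Ngp reached 2.28 CPM and Ctsg 2.03 CPM in adventitia replicate 1, above the highest Camp level, and Ltf, Elane, Mpo and Prtn3 did not exceed 0.796 CPM anywhere.

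Lyz2 (ENSMUSG00000069516, chromosome 10, 117277334 to 117282274), the main lysozyme of mouse macrophages, was among the most abundant transcripts in both groups. It had 36663, 78946 and 134065 reads in the adventitia, or 9302, 7835 and 13334 CPM, and 151910 and 107911 reads in the intima, or 10147 and 5186 CPM. By RPKM it ranked 8, 15 and 5 among the 41388 IDs in the adventitia libraries and 7 and 10 in the intima libraries. The groups overlapped, with a log2 difference of 0.15 (SE 0.53). Leaving out 1 library moved it between -0.39 without intima replicate 2 and 0.96 without intima replicate 1.

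Lyz1 (ENSMUSG00000069515, chromosome 10, 117287796 to 117292868), the lysozyme best known from Paneth cells of the mouse gut, was far lower and differed more between the libraries. It had 184, 527 and 646 reads in the adventitia, or 46.7, 52.3 and 64.3 CPM, and 80 and 499 reads in the intima, or 5.34 and 24.0 CPM. Every adventitia library was above both intima libraries, and the adventitia libraries lay within 1.38-fold of each other. The log2 difference was 1.72 (SE 0.87), between 1.18 without intima replicate 1 and 2.95 without intima replicate 2. Lyz1 reads were 0.502, 0.668 and 0.482% of the Lyz2 reads in the adventitia, and 0.0527 and 0.462% in the intima, so the ratio differed in intima replicate 1 from the other 4 libraries. How many Lyz1 reads came from Lyz2 transcripts was not tested.

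Slpi (ENSMUSG00000017002, chromosome 2, 164354070 to 164389095) encodes the secretory leukocyte protease inhibitor, which blocks neutrophil elastase and is made by epithelia and by activated macrophages. It had 63, 4 and 0 reads in the adventitia, or 15.98, 0.397 and 0 CPM, and 0 and 349 reads in the intima, or 0 and 16.8 CPM. It was thus high in 1 library of each group and near or at 0 in the rest. The log2 difference was -0.91 (SE 2.42), and it was 8.41 without intima replicate 2, with no intima read left.

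The summed markers of mesothelium and epithelium were high in the intima library with Slpi reads, though not every marker of the list was. The 11 measured markers of that list summed to 16.7, 7.64 and 5.07 CPM in the adventitia and to 0.868 and 475 CPM in the intima, with reads for 11 of them in the adventitia and 9 in the intima. Msln, which encodes mesothelin, was at 1.52, 0.496 and 0.497 CPM in the adventitia, against 0 and 177 CPM in the intima. Krt18, an epithelial keratin, was at 0.761, 0.198 and 0.597 CPM in the adventitia, against 0.134 and 143 CPM in the intima. Upk1b, Wt1, Krt8 and Krt19 were also higher in intima replicate 2 than in replicate 1. The epithelial gene Epcam and the mesothelial gene Upk3b had no read in either intima library. Lrrn4, Nkain4 and Krt7 were at or under 0.134 CPM in both. Within the adventitia, replicate 1 was highest in CPM both for the summed list and for Slpi. It was also the library with the smallest read total, and no marker of the list exceeded 24 reads in any adventitia library. The order of these sums within the adventitia therefore rests on few reads. The part of mesothelial or epithelial cells in the Slpi reads was not tested.

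**Figure D3:**
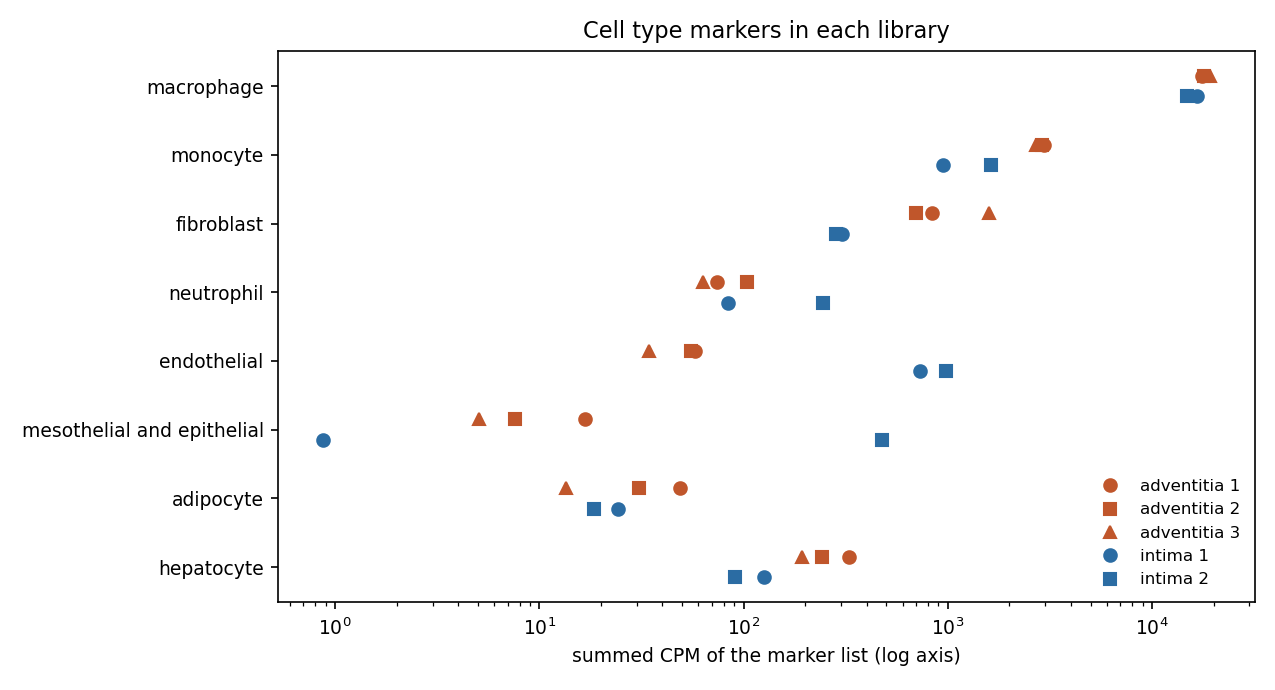
Summed CPM on a log axis of 8 lists of cell type markers, none of which holds any of the 10 genes, with adventitia libraries (red) drawn above intima libraries (blue) and the marker shape giving the replicate. Macrophage markers sum to 14768 to 19299 CPM in all 5 libraries, and the mesothelial and epithelial list is at 0.868 CPM in intima replicate 1 but 475 CPM in replicate 2.

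Set side by side, 4 of the 10 genes had groups that did not overlap in TMM-normalised CPM, all with the adventitia higher: Saa3, S100a8, Lyz1 and Camp, the last at 4 reads against 1. Among the 13408 genes tested, which leave out Camp and Saa1, 23.2% had this pattern with the adventitia higher and 17.8% with the adventitia lower. Of the 8 genes that passed the filter on low counts, 5 had a positive log2 difference, and the median over the 8 was 0.35 beside -0.14 over all genes tested. The edgeR quasi-likelihood test called 90 of the 13408 genes at a Benjamini-Hochberg adjusted p under 0.05, or 0.671%, with 20 higher in the adventitia (0.149%) and 70 lower (0.522%). Upper-quartile scaling gave 29 higher and 46 lower, library size alone 34 and 59, and the median over all tested genes then moved to 0.35 and 0.09. Saa3 was the only one of the 10 among the calls, and was not among them without adventitia replicate 1 or without adventitia replicate 3. DESeq2 and limma voom also called S100a8. The genes were chosen with this contrast known, so nothing is read from that count.

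**Figure D4:**
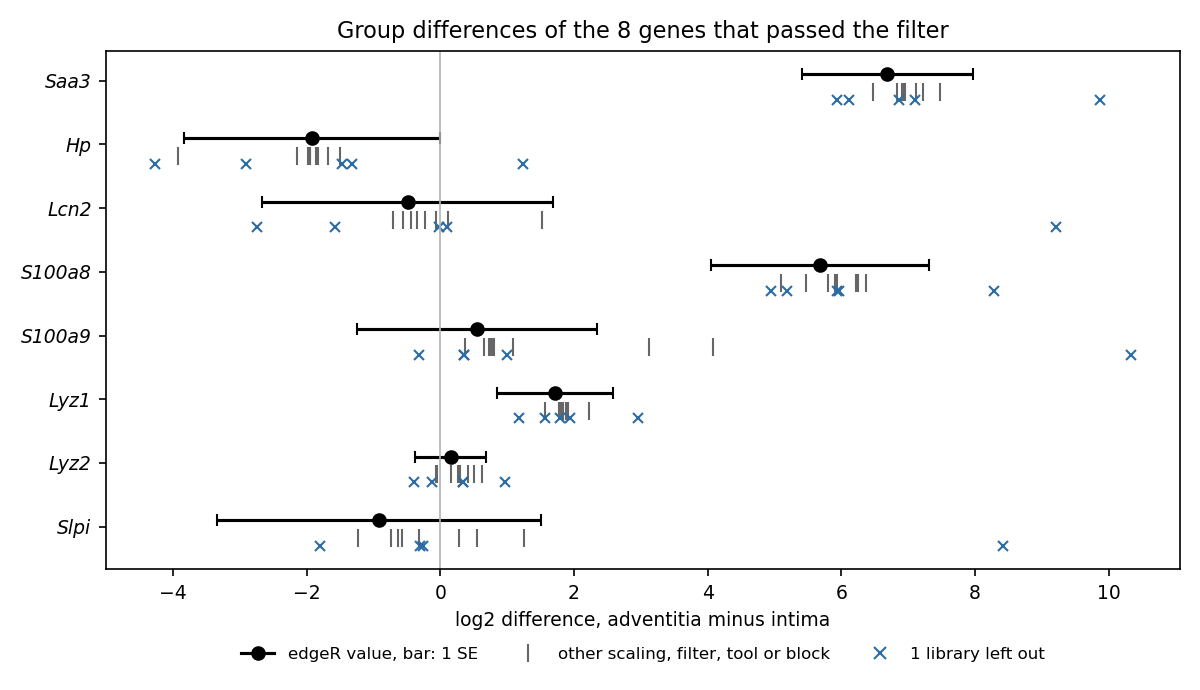
Log2 difference, adventitia minus intima, of the 8 genes that passed the filter, with the edgeR value and a bar of 1 SE (black), the values under other scalings, filters, tools or the replicate block (grey ticks) and with 1 library left out (blue crosses). Saa3, S100a8 and Lyz1 are above 0 throughout, whereas Hp, Lcn2, S100a9, Lyz2 and Slpi have values on both sides of 0.

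The replicates of a group also differed from each other. Of the 6 genes of the group at 10 TMM-normalised CPM or more in either intima library, Lcn2, S100a9 and Slpi were under 0.5 in the other, beside the 14.2% of all tested genes given above. In the adventitia Slpi was split in this way between replicate 1 and each of the others, and Lcn2 between replicates 2 and 3.

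For each gene with a mean of at least 16 CPM in a group, the genes most like it over the 5 libraries were ranked by the root mean square difference of log2(TMM-normalised CPM + 1), each gene centred on its mean, among 12285 tested genes. The nearest to Saa3 were Kmo, Ogn and Vsig4, at 0.53, 0.56 and 0.61. Those nearest to S100a8, S100a9, Lyz1 and Lyz2 were Tfam at 0.18, Helb at 0.17, Tmem209 at 0.10 and Hacd4 at 0.04. This likeness is a description of levels only.

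Genes of the same response were taken from 5 lists of 100 genes in all, of which 59 were tested. Over all genes tested, 2 of these 59 passed in edgeR, both higher in the adventitia. With TMM scaling, 41 of the 59 had a positive log2 difference, beside 46.6% of all tested genes. The median over the 59 was 0.43, beside -0.14 over all tested genes. Both edgeR calls were lost when any 1 adventitia replicate was left out. The other tools called more genes over all, most of them higher in the adventitia. DESeq2 called 2159 of 31645 genes, 1658 higher and 501 lower (76.8% higher). Limma voom called 839 of 13408, 625 higher and 214 lower (74.5% higher). Higher in the adventitia was thus the usual direction of a call by either tool in the lists below.

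Among 26 other acute phase proteins, 8 were tested, 1 was higher in the adventitia, none was lower and 7 did not pass. DESeq2 called 4 (C3, Fgg, Itih3 and Serpina3n) and limma voom 2 (Mt1 and Serpina3n), all higher in the adventitia. The one that passed in edgeR was C3, the central complement component, at 63.2, 110 and 74.3 CPM in the adventitia, against 3.94 and 2.69 CPM in the intima, a log2 difference of 4.39 with an SE of 0.83 (edgeR, adjusted p = 0.0393). Its adjusted p in edgeR was 0.167, 0.151 and 0.140 without adventitia replicates 1, 2 and 3. With intima replicate 2 left out it was 0.0703. It was 0.0537 in limma voom and 7.79e-05 in DESeq2, and these alternatives span 7.79e-05 to 0.167. Mt1, a metal-binding metallothionein, was at 874, 986 and 791 CPM in the adventitia, against 314 and 229 CPM in the intima, and its log2 difference of 1.45 did not pass in edgeR. Il1rn, the interleukin 1 receptor antagonist, had a log2 difference of 1.71, Cp, the copper carrier ceruloplasmin, one of 0.08 and Mt2 one of 1.96, and none passed in edgeR. The liver proteins Saa2, Crp, Apcs, Orm2 and Hpx did not exceed 0.893 CPM anywhere.

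Among 22 cytokine and signalling genes that induce the acute phase response, edgeR called 0 of 20 tested, with 5 at an unadjusted p under 0.05. DESeq2 called 3 (Cebpb, Cebpd and Il6) and limma voom 2 (Cebpb and Cebpd), all higher in the adventitia; Il6 did not pass the filter of the edgeR fit. Cebpb and Cebpd are transcription factors that act on acute phase promoters. Cebpb was at 863, 499 and 189 CPM in the adventitia, against 54.9 and 8.12 CPM in the intima, a log2 difference of 3.69 with an SE of 0.88 (edgeR, adjusted p = 0.0868). Cebpd was at 53.8, 41.2 and 33.2 CPM in the adventitia, against 0.2004 and 1.83 CPM in the intima, a log2 difference of 5.18 with an SE of 1.34 (edgeR, adjusted p = 0.0875), and it is named after its values were seen. Neither gene had overlapping groups. In edgeR, Cebpb was also called with no filter beyond 1 read, with a filter of at least 1 CPM, with the replicate block or without intima replicate 1, and Cebpd without intima replicate 2. Il1b, the interleukin 1 beta gene, was at 376, 904 and 503 CPM in the adventitia, against 433 and 578 CPM in the intima, with overlapping groups. Nfkbia and Nfkbiz, inhibitors and modulators of NF-κB, had log2 differences of 0.89 and 1.20, neither of which passed; Nfkbiz was called without intima replicate 1.

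Among 14 genes for receptors of these proteins and their co-receptors, 13 were tested, 1 was higher in the adventitia, none was lower and 12 did not pass. Fpr2, the formyl peptide receptor that also binds serum amyloid A and cathelicidin, was at 49.0, 44.7 and 26.5 CPM in the adventitia, with 1 read in each intima library. The pooled ratio was 590, with a 95% counting interval of 163 to 4880, and the log2 difference was 8.98 with an SE of 1.53 (edgeR, adjusted p = 0.0239). Its adjusted p in edgeR was 0.215, 0.125 and 0.100 without adventitia replicates 1, 2 and 3, and the alternatives span 1.69e-08 in DESeq2 to 0.215. Cd163, the receptor for haptoglobin bound to haemoglobin, was at 748, 480 and 465 CPM in the adventitia, against 153 and 22.9 CPM in the intima, and its log2 difference of 2.36 did not pass in edgeR (SE 0.72, adjusted p = 0.113), though limma voom called it, as did edgeR with no filter beyond 1 read, with the replicate block or without intima replicate 1. Tlr2, a receptor of serum amyloid A, Cd14, a co-receptor of TLR4, and Cd36, a scavenger receptor, had log2 differences of 0.50, -0.24 and -0.38, and none passed.

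Among 26 other antimicrobial genes, edgeR called 0 of 11 tested, with 3 at an unadjusted p under 0.05, DESeq2 called 2 (Chil3 and Pglyrp1) and limma voom 1 (Wfdc17), all higher in the adventitia. Wfdc17, which encodes a small protein with the same type of domain as Slpi, had the highest mean level of the list, at 4202, 3299 and 3516 CPM in the adventitia, against 1477 and 382 CPM in the intima, a log2 difference of 1.69 with an SE of 0.60 (edgeR, adjusted p = 0.133). Mpeg1, the pore-forming perforin 2 of macrophages, was at 323, 626 and 411 CPM in the adventitia, against 1111 and 444 CPM in the intima. Rnase4, a secreted ribonuclease, had a log2 difference of 0.22 and Slc11a1, a metal transporter of the phagosome, one of -1.58, and neither passed. In edgeR, Wfdc17 was called with no filter beyond 1 read or without intima replicate 1.

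Among 12 other S100 genes, edgeR called 0 of 7 tested, with 2 at an unadjusted p under 0.05, DESeq2 called S100a4 as higher and S100a16 as lower in the adventitia, and limma voom called S100a16 as lower. S100a13, S100a10, S100a6 and S100a1, calcium-binding proteins with the highest levels of the list, had log2 differences of 0.46, 0.94, 0.60 and 0.16, and none passed. S100a16 was at 0.761, 0.198 and 0.398 CPM in the adventitia, against 14.2 and 41.4 CPM in the intima, a log2 difference of -6.19 with an SE of 1.54 (edgeR, adjusted p = 0.0868), opposite in sign to S100a8. It was called with no filter beyond 1 read, with a filter of at least 1 CPM or without intima replicate 1, S100a4 with that CPM filter, and both are named after their values were seen.

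**Figure D5:**
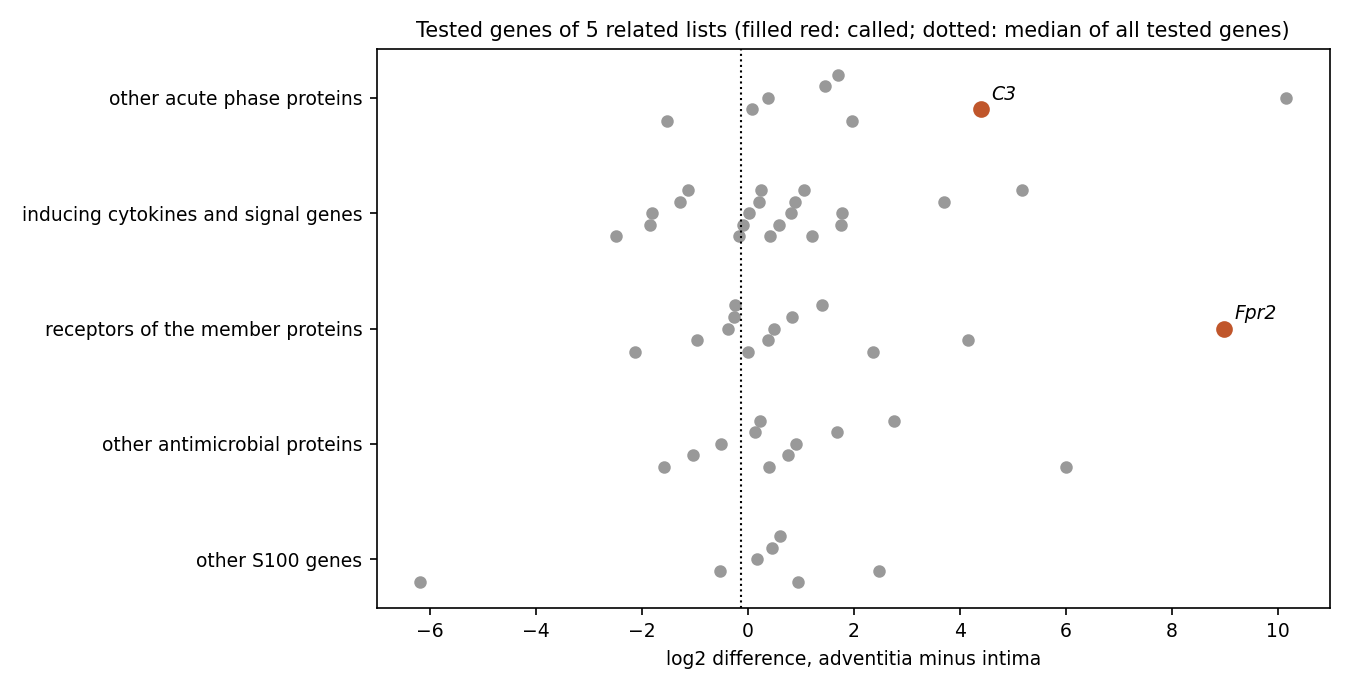
Log2 difference, adventitia minus intima, of each tested gene in the 5 lists of related genes, 1 row per list, with the genes that passed in edgeR in red and named and the median of all 13408 tested genes as a dotted line at -0.14. C3 and Fpr2 passed, and the other 57 points are spread on both sides of 0.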

How the data were processed

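Poly-A RNA of sorted cells was made into cDNA with a kit for few cells and sequenced as single reads of 50 bases, per the labels' protocols. The submitters' processing notes list GRCm38 as the build and, as tools with no stated role, STAR (2.0.4b), featureCounts (1.4.5) and Subread; the annotation release and strand setting are not given in the sources used here. The deposited count column holds whole reads per gene for each library. Deposited CPM and RPKM values were the same as those computed from those counts, with 0 mismatches at a relative tolerance of 1e-06. Symbols were found for 40254 of 41388 IDs.

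Counts were tested with edgeR 4.0.16 (quasi-likelihood, filterByExpr with a minimum count of 10 and total of 15, TMM scaling, no covariates) in R 4.3.3 over all 5 libraries, with Benjamini-Hochberg adjustment over all genes tested. SE is the log2 difference divided by the square root of F. Alternatives used DESeq2 1.42.0, limma 3.58.1, other scalings and filters, thinned counts, a block for the replicate number, and the omission of each library. Low-read intervals are exact at 95% and cover counting error only, as no molecular identifiers tell PCR copies apart. Python 3.11.15, pandas 2.3.3, scipy 1.17.1 and matplotlib 3.10.9 were used. Without strand, reads of overlapping genes cannot be told apart; of the 10 genes, only Slpi has exons that overlap another gene of GENCODE M21, the microRNA gene Mir7678.

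The 10 genes and all lists were chosen with earlier results of these data known. The rule for named genes took the 10 genes, Apoe, Fcgr1, Itgax and H2-Ab1; each called gene of the 5 related lists and up to 4 others with the highest mean CPM; and the nearest genes by level. It allowed, but did not require, the called genes and the 2 highest of each cell type list, of which only those set beside a result are named. Defining markers outside this rule, such as Ly6g, Retnlg, Adipoq and Upk3b, and the genes given as near 0 were chosen after their values were seen.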

Additional observations from a re-analysis of the deposited data

How the results depend on the processing

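Of the 90 genes called, the count was 386 with no filter beyond 1 read in total, 396 with at least 1 CPM in every library of a group, 183 with the replicate block, 2159 with DESeq2 and 839 with limma voom, and 10 to 389 with 1 library left out. The 2 calls among related genes became 7, 5, 4, 12 and 8 under the same 5 settings, and 0 to 7 with 1 library left out. Other scalings and thinned counts kept both counts within 1.5 times. The replicate numbers share only a label: the deviations of same-numbered libraries correlated at 0.032 and -0.0026 over genes. The number of the 10 genes whose groups did not overlap was 3 with thinned counts, and 4 to 8 with 1 library left out, with 8 and 7 when intima replicates 1 and 2 were omitted; leaving 1 library in a group by itself narrows the range of that group. Saa3, S100a8 and Lyz1 kept their sign in 14 of 14 settings, S100a9 and Hp in 13 of 14, Lyz2 in 10 of 14, Lcn2 in 9 of 13 and Slpi in 8 of 12; the cause was not tested. Depth limits Saa1 and Camp, which had too few reads to be tested.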
